A study of Mus musculus with 4 samples.

Results

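The C-type lectin receptors described here are 9 mouse genes chosen by symbol: Cd207, Clec4a1, Clec4a2, Clec4a3, Clec4d, Clec4e, Clec4n, Clec7a and Clec12a. Of the 32285 genes in the deposited feature tables, 8 were members, because Clec7a has no row there and was not analysed here. The annotation used for positions lists Clec7a, the beta-glucan receptor Dectin-1, as a polymorphic pseudogene.

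Hearts of 5 adult mice per group, males and females together and 20 in all, were pooled and sorted for CD64+ CD45+ CD11b+ phagocytes that were Ly6G negative and low for Ly6C. The carboplatin AngII/PE group received carboplatin at 45 mg/kg, 2 times a week for 2 weeks, then 4 weeks of recovery, then a minipump with angiotensin II (1.5 mg/kg per day) and PE (50 mg/kg per day) for 7 days. The PBS AngII/PE group had PBS in place of carboplatin and the same pump. The carboplatin saline group had carboplatin and a saline pump, and the PBS saline group had PBS and a saline pump. Carboplatin is a platinum compound that crosslinks DNA, and angiotensin II is a hormone that constricts vessels. Each group is 1 droplet library of pooled hearts, so there is no replicate, no difference was tested, and every interval covers counting error only.

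C-type lectin receptors are surface proteins of myeloid cells with a lectin fold, which in many of them binds sugars or lipids of microbes and dying cells. Clec4d, Clec4e and Clec4n signal through the adaptor Fcer1g to the kinase Syk and then to Card9, Bcl10 and Malt1, which switch on cytokine genes. Clec4a2 and Clec12a carry an inhibitory motif in the cytoplasmic tail that recruits the phosphatases Ptpn6 and Ptpn11, and Clec4a1 and Clec4a3 are close relatives of Clec4a2. Cd207, or langerin, is an endocytic receptor best known from the Langerhans cells of the skin, where it forms Birbeck granules.

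All 9 genes lie on chromosome 6 of mm10. Cd207 is at 83671215 to 83677857 on the minus strand, apart from the others. The 6 Clec4 members span 368 kb, from Clec4a1 at 122921848 to Clec4e at 123289870. Clec4d (123262111 to 123275265, plus strand) and Clec4e (123281789 to 123289870, minus strand) are neighbours with 6.52 kb between them. Clec12a lies at 129342691 to 129365303 on the plus strand. No annotated gene overlapped a member on the same strand. Of the 50-base words in Clec4a2 transcripts, 6.69% also occurred in other genes, Clec4a4 among them, so its counts are the least certain. For Clec12a that share was 0.402%, and for the other members it was 0.

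The stretches before the transcription starts of the 4 members that the results turn on follow their names, 250 bases each, from RefSeq (GRCm38.p6, 5′ to 3′ on the gene's own strand). Capitals mark matches on either strand to short motifs of factors that act in myeloid cells: GAGGAA of PU.1, TGANTCA of AP-1 and TTGCNNAA of C/EBP, where N is any base. The windows are chr6:83677858-83678107 (Cd207, minus), chr6:123261857-123262106 (Clec4d, plus), chr6:123289872-123290121 (Clec4e, minus) and chr6:129349994-129350243 (Clec12a, plus).
Cd207: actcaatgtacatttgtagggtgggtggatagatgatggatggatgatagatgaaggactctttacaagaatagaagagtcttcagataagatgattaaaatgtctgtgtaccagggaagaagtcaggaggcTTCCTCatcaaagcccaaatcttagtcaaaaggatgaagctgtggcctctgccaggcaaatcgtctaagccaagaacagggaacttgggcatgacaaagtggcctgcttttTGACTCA
Clec4d: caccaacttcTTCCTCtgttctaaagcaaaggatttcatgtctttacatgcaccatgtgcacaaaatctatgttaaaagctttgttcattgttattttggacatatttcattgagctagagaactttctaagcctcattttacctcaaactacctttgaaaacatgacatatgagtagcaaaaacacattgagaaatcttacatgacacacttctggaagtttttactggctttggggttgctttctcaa
Clec4e: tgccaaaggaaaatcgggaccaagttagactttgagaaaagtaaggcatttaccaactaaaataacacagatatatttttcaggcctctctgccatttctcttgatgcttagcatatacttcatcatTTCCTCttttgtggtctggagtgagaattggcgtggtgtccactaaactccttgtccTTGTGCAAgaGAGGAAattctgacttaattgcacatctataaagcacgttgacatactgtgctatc
Clec12a: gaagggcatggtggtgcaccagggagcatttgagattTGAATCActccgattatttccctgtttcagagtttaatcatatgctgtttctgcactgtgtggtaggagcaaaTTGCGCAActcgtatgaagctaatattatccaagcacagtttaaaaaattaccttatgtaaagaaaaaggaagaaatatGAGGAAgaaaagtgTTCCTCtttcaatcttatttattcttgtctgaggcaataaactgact

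The Cd207 window held an AP-1 motif that begins 7 bases before the start, and a PU.1 motif at 118 bases. Neighbouring Clec4d and Clec4e were both higher under AngII/PE in the class, where Cd207 was lower, and they held the PU.1 motif as Cd207 did. Clec4d had 1 copy at 240 bases. Clec4e had copies at 123 and 56 bases and a C/EBP motif at 66 bases. Clec12a had PU.1 motifs at 61 and 47 bases, a C/EBP motif at 140 bases and an AP-1 motif at 213 bases. Of 32851 RefSeq windows of this length, 23.3% held the PU.1 letters, 6.75% those of AP-1 and 9.56% those of C/EBP. An IRF motif, an NF-kB motif and the E-box CACGTG, searched in the same way, were in 2.98%, 1.41% and 6.02% of windows and in none of these 4. Windows were found for 8 of the 9 members. Among those not printed, the Clec4a2 window held none of the motifs searched. The Clec4a1 window, both Clec7a windows and 1 of the 2 Clec4a3 windows held the PU.1 letters. A match is a description of letters, not evidence of a bound site.

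The filters kept 5669, 3849, 3484 and 4310 cells for carboplatin AngII/PE, PBS AngII/PE, carboplatin saline and PBS saline, out of 8012, 5997, 7049 and 6910 barcodes. Kept cells held medians of 10593 to 12737 UMIs per library, and any pair of libraries shared 1 to 10 kept barcodes. In the same order of libraries, 3921, 2127, 1017 and 1949 cells were macrophage-like, with median UMIs of 14027, 14962, 16384 and 13540, and all 10 macrophage markers were detected. Unnamed clusters, which carried macrophage markers too, held a further 16.3%, 24.3%, 36.8% and 27.7% of kept cells. Different clusters made up the macrophage-like class under the different pumps: a resident-like cluster held 1.2% of it for carboplatin AngII/PE and 4.23% for PBS AngII/PE, against 83.0% for carboplatin saline and 91.3% for PBS saline. Under AngII/PE most macrophage-like cells were in a cluster led by Fcrls and in MHC class II-like, inflammatory-like and lipid-associated-like clusters. Values of the whole class therefore compare different mixtures. Within-cluster values are given beside those of the members, but not for the gene lists of signalling, other lectins and outputs. Clec4d, Clec4e, Clec4n and Cd207 were among the variable genes used for clustering. Clec4d is among the 10 leading genes of the lipid-associated-like cluster and Clec4e among those of the inflammatory-like cluster, so their levels in those clusters are descriptions.

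Under AngII/PE the macrophage-like class held more of 7 of the 8 measured receptors and less Cd207 than under saline, after carboplatin and after PBS alike. The step was largest for Clec4e and Clec4d, about as large in both arms for Clec4n, and smallest for the 3 Clec4a genes after PBS and for Clec4a3 and Clec12a after carboplatin. After carboplatin, 7 of 8 members were at least 1.5-fold higher in the AngII/PE library and 1 was at least 1.5-fold lower. Among all 8492 genes at a mean of at least 10 CPM (a gene's UMIs scaled to the UMI total of its class and library), 7.54% were that much higher and 7.56% that much lower. After PBS, 4 of 8 members were at least 1.5-fold higher under AngII/PE and 1 was lower, where the shares of all genes were 8.23% and 9.01%. The median log2 ratio of the members was 0.68 after carboplatin and 0.64 after PBS, against medians of 0.04 and 0.00 over all genes. Each saline library serves in 1 pump comparison and in the carboplatin comparison under saline, and each AngII/PE library likewise, so the comparisons are not independent of one another.

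**Figure D1:**
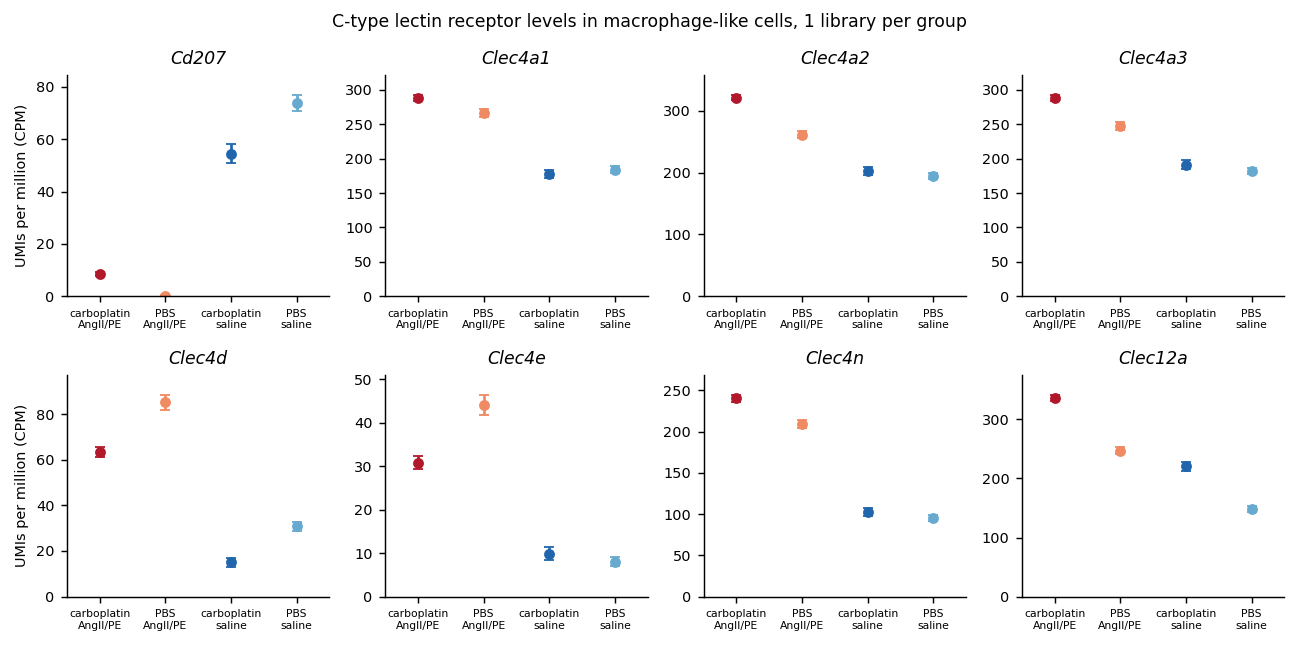
Level of each of the 8 measured receptors in macrophage-like cells (CPM, linear axis from 0) by library, with 95% Poisson intervals for counting error and 1 library per group. Clec4e stood at 30.8 and 44.1 CPM in the AngII/PE libraries and at 9.90 and 8.01 CPM in the saline libraries, while Cd207 was higher in both saline libraries.

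Clec4e, or Mincle, binds glycolipids of mycobacteria and a nuclear protein released by dying cells. Its level was 30.8 CPM for carboplatin AngII/PE, 44.1 for PBS AngII/PE, 9.90 for carboplatin saline and 8.01 for PBS saline. Both AngII/PE libraries lay above both saline libraries. The ratio of AngII/PE to saline was 3.11 (95% interval 2.65 to 3.66) after carboplatin and 5.5 (4.78 to 6.36) after PBS. Within the resident-like cluster it was 2.72 (1.51 to 4.59) after PBS, from 90 cells against 1779. The 16 UMIs of the AngII/PE library were in 3 of those cells, and the share of cells with a UMI was 3.33% against 3.32%. Within the MHC class II-like cluster the order was the other way: 27.6 CPM for PBS AngII/PE against 61.9 CPM for PBS saline, 2.24-fold lower (1.71 to 2.91), from 591 and 74 cells. The Fcrls-led cluster went the way of the class, at 30.7 CPM for PBS AngII/PE against 2.53 CPM for PBS saline. The saline value there was 1 UMI in 33 cells. The inflammatory-like cluster was at 88.1 CPM against 57.0 CPM, with 22 cells in the saline library. Clec4e is thus a receptor whose class value and whose value inside 1 of the clusters differ in direction.

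Clec4d, the partner of Clec4e in the same receptor complex, stood at 63.4 CPM for carboplatin AngII/PE, 85.1 for PBS AngII/PE, 14.9 for carboplatin saline and 30.8 for PBS saline. Again both AngII/PE libraries were above both saline libraries. The AngII/PE over saline ratio was 4.24 (3.73 to 4.84) after carboplatin and 2.77 (2.56 to 2.99) after PBS. In resident-like cells after PBS the ratio was 1.62 (1.18 to 2.19). Within the MHC class II-like cluster Clec4d was lower under the pump in both arms: 15.7 CPM for carboplatin AngII/PE against 32.5 for carboplatin saline, and 21.2 CPM for PBS AngII/PE against 79.8 for PBS saline. In the inflammatory-like cluster it was lower as well, at 83.4 against 153 CPM after carboplatin and at 124 against 187 CPM after PBS, with 21 and 22 cells in the saline libraries. The Fcrls-led cluster, whose pump ratio is not given here, ran from 17.7 to 86.2 CPM over the 4 libraries. Neutrophil-like cells had the highest Clec4d level of all clusters. The 7 neutrophil markers summed to 76.1 and 81.8 CPM in macrophage-like cells of the AngII/PE libraries (carboplatin, PBS) and to 44.8 and 71.3 CPM in those of the saline libraries. In each saline library 1 of those markers was at 0, Cxcr2 or Retnlg, and the part of neutrophil RNA in these ratios was not tested.

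Clec4n, or Dectin-2, binds mannans of fungal walls. It stood at 240.4 CPM for carboplatin AngII/PE, 209 for PBS AngII/PE, 103 for carboplatin saline and 95.8 for PBS saline. The libraries formed an upper pair under AngII/PE and a lower pair under saline. The ratio of AngII/PE to saline was 2.34 (2.22 to 2.46) after carboplatin and 2.19 (2.09 to 2.29) after PBS. Unlike Clec4d, Clec4n kept this size inside the resident-like cluster, with a ratio of 2.03 (1.68 to 2.44) after carboplatin (47 against 844 cells) and 2.06 (1.79 to 2.36) after PBS. In the MHC class II-like cluster it was 1.14 (0.996 to 1.30) after carboplatin and 1.41 (1.18 to 1.70) after PBS.

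Clec12a, an inhibitory receptor that binds uric acid crystals, stood at 337 CPM for carboplatin AngII/PE, 247 for PBS AngII/PE, 220.5 for carboplatin saline and 148 for PBS saline. The AngII/PE over saline ratio was 1.53 (1.47 to 1.58) after carboplatin and 1.67 (1.60 to 1.73) after PBS. Inside the resident-like cluster the PBS ratio was 0.853 (0.716 to 1.01), and inside the MHC class II-like cluster 1.05 (0.937 to 1.19). After carboplatin it was 1.37 (1.18 to 1.59) in the resident-like and 1.17 (1.07 to 1.29) in the MHC class II-like cluster. The class value of Clec12a after PBS was thus not seen inside these 2 clusters, whereas after carboplatin both were above 1. The Fcrls-led cluster, the largest of the class under AngII/PE, is not covered by these ratios. Its Clec12a level ran from 91.0 CPM in the lowest library to 311.5 CPM in the highest.

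After PBS the Clec4a genes moved least. Clec4a1 stood at 288 CPM for carboplatin AngII/PE, 267 for PBS AngII/PE, 178 for carboplatin saline and 184 for PBS saline. Its ratio of AngII/PE to saline was 1.62 (1.56 to 1.69) after carboplatin and 1.45 (1.40 to 1.50) after PBS, and it was similar in resident-like cells after PBS at 1.44 (1.28 to 1.61) and in the MHC class II-like cluster at 1.54 (1.34 to 1.78). Clec4a2 and Clec4a3 had class ratios of 1.58 and 1.51 after carboplatin and of 1.34 and 1.36 after PBS. In resident-like cells after PBS, Clec4a2 was at 1.11 (0.975 to 1.26) and Clec4a3 at 1.06 (0.927 to 1.22). Of the 3 genes, Clec4a1 was the one with about the class ratio inside both clusters, since Clec4a2 and Clec4a3 were at 1.12 and 0.974 in the MHC class II-like cluster.

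**Figure D2:**
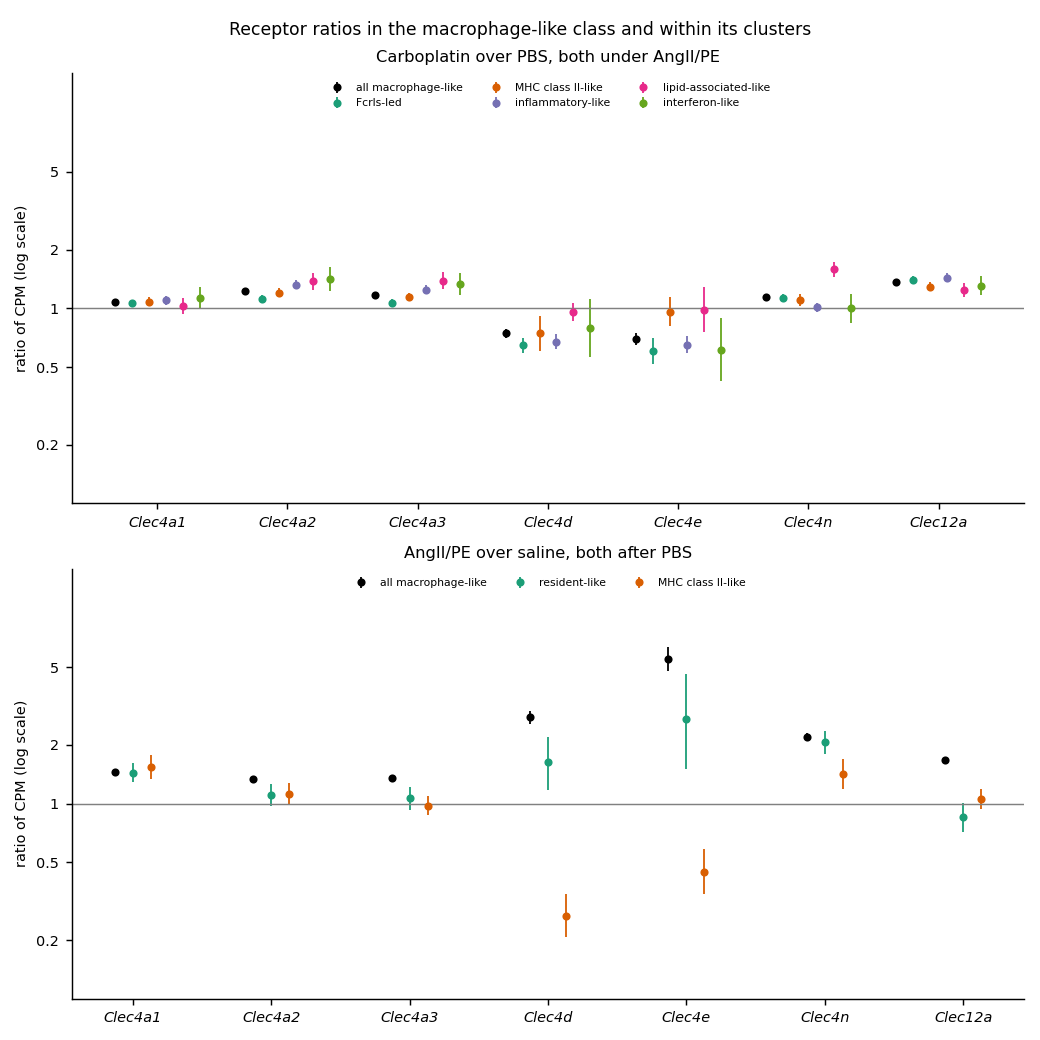
Ratio of CPM for 7 receptors (log axis) in all macrophage-like cells and inside their clusters, with 95% intervals for counting error; upper panel carboplatin over PBS under AngII/PE, lower panel AngII/PE over saline after PBS. In the upper panel Clec12a lies between 1.25 and 1.44 in the 5 clusters drawn; in the lower panel Clec4d and Clec4e lie above 1 in the class and below 1 in the MHC class II-like cluster.

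The share of cells with at least 1 UMI was also higher in both AngII/PE libraries than in both saline libraries for Clec4n, Clec4d, Clec4e and Clec12a once every cell was thinned to 2000 UMIs. For Clec4n it was 30.1% of macrophage-like cells for carboplatin AngII/PE, 28.1% for PBS AngII/PE, 13.5% for carboplatin saline and 13.7% for PBS saline. For Clec4d the shares were 9.0%, 14.2%, 1.87% and 4.17%, and for Clec4e 4.82%, 6.10%, 1.38% and 1.34%, with libraries in the same order. For Clec12a they were 45.3%, 35.1%, 32.7% and 23.6%. Endothelial-like cells, which should lack these receptors and serve as a gauge of free RNA, gave 1.37% to 4.39% for Clec4n, 0.456% to 1.25% for Clec4d, 0 to 1.25% for Clec4e and 1.06% to 5.33% for Clec12a. Each macrophage share was above that of endothelial-like cells in its own library, though Clec4d for carboplatin saline and Clec4e in both saline libraries were within 2 percentage points of it. Without thinning the Clec12a shares were 90.2%, 82.0%, 84.2% and 65.9%, at median depths of 13540 to 16384 UMIs in macrophage-like and 5869 to 10026 UMIs in endothelial-like cells.

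The same pump was compared in conventional type 2 dendritic cell (cDC2)-like cells, of which there were 118, 153, 128 and 191. Dendritic cells of this type present antigen to helper T cells. Clec4n stood at 209 CPM for carboplatin AngII/PE and 159 for PBS AngII/PE, against 21.5 CPM for carboplatin saline and 23.6 for PBS saline. Both AngII/PE libraries lay far above both saline libraries, with ratios of 9.72 (7.13 to 13.5) after carboplatin and 6.74 (5.29 to 8.67) after PBS. Clec4d was at 12.2 and 17.3 CPM under AngII/PE (carboplatin, PBS) and at 1.91 and 2.59 CPM under saline, ratios of 6.37 (2.18 to 25.3) and 6.70 (3.20 to 15.7). Clec4e had a ratio of 3.56 (2.13 to 6.16) after PBS, and after carboplatin 12.9 (4.07 to 65.7) against only 3 UMIs in the saline library. The Clec4a genes and Clec12a lay between 0.920 and 1.49 in these cells. Of 8277 genes measured there, 12.2% were at least 1.5-fold higher under AngII/PE after carboplatin and 9.59% after PBS, and 19.9% and 9.75% were that much lower. The 10 macrophage markers summed to 3262 and 2920 CPM in cDC2-like cells under AngII/PE (carboplatin, PBS) against 4372 and 3549 CPM under saline. The 9 cDC2 markers summed to 2745 and 2786 CPM against 1620 and 2059 CPM, and the 8 inflammatory macrophage markers to 3624 and 3761 CPM against 2192 and 2301 CPM. The 7 neutrophil markers summed to 13.8 and 21.2 CPM against 8.62 and 7.77 CPM, with 3 and 2 against 2 and 4 of them at 0. The part of these marker lists in the cDC2-like ratios was not tested.

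Carboplatin was compared with PBS under each pump. The 2 AngII/PE libraries differed in sex mix. Of macrophage-like cells called by sex, 49.4% were female for carboplatin AngII/PE and 29.2% for PBS AngII/PE. Under AngII/PE, 1 of 8 members was at least 1.5-fold higher after carboplatin and 0 were that much lower, where 0.436% and 1.00% of all genes were. Under saline, 0 of 8 were higher and 1 was lower, where 1.66% and 2.11% of all genes were. Clec12a, at a ratio of 1.36 (1.33 to 1.40) under AngII/PE and 1.49 (1.42 to 1.55) under saline, was higher after carboplatin under both pumps without reaching 1.5-fold. Clec4d was lower after carboplatin under both, 1.34-fold (1.28 to 1.41) under AngII/PE and 2.06-fold (1.79 to 2.38) under saline.

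In cDC2-like cells under AngII/PE the Clec12a ratio of carboplatin to PBS was 0.962 (0.826 to 1.12). Clec12a was higher after carboplatin inside each macrophage-like cluster, all with 20 cells or more in both AngII/PE libraries. Its ratio there was 1.39 (1.33 to 1.46) in the Fcrls-led cluster, 1.29 (1.23 to 1.36) in the MHC class II-like, 1.44 (1.36 to 1.51) in the inflammatory-like, 1.25 (1.15 to 1.35) in the lipid-associated-like, 1.30 (1.17 to 1.46) in the interferon-like and 2.40 (1.92 to 2.99) in the resident-like cluster. Under saline it stood at 207 CPM after carboplatin and 139 CPM after PBS in resident-like cells, a ratio of 1.49 (1.42 to 1.56), and at 1.16 (1.00 to 1.34) in MHC class II-like cells. Its ratio was 0.797 (0.607 to 1.05) among the 21 and 22 inflammatory-like cells of the saline libraries, the cluster that went the other way. Markers of classical monocytes, 7 genes, summed to 349 CPM after carboplatin and 326 CPM after PBS in macrophage-like cells under AngII/PE, and to 359.7 and 215 CPM under saline, and their part in the Clec12a values was not tested.

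For Clec4d under AngII/PE the carboplatin ratio was 0.647 (0.592 to 0.708) in the Fcrls-led cluster, 0.743 (0.604 to 0.913) in the MHC class II-like, 0.675 (0.620 to 0.735) in the inflammatory-like and 0.958 (0.864 to 1.06) in the lipid-associated-like cluster. Under saline, resident-like cells held 7.09 CPM after carboplatin and 23.7 CPM after PBS, 3.34-fold lower (2.70 to 4.18). Over the whole macrophage-like class, where Clec4d was 2.06-fold lower after carboplatin under saline, the 2 sexes were not alike. The log2 ratio of Clec4d under saline was -1.33 in macrophage-like cells called male and 0.14 in those called female. Females made up 55.8% of called cells for carboplatin saline and 45.5% for PBS saline, and mice of each sex were pooled, so no single animal can be told apart.

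Clec4e was 1.43-fold lower (1.34 to 1.54) after carboplatin under AngII/PE. Under saline its class ratio was 1.24 (1.01 to 1.52), from 169 and 224 UMIs. Of the 169 UMIs, 32 were in 3 of 9 lipid-associated-like cells. Resident-like cells under saline held 4.66 CPM after carboplatin and 4.93 CPM after PBS. Clec4e was at 38.6 against 61.9 CPM in MHC class II-like and 12.2 against 57.0 CPM in inflammatory-like cells. Fcrls-led cells were at 4.42 against 2.53 CPM, from 2 UMIs and 1 UMI. Inside clusters under AngII/PE the Clec4e ratio was 0.601 (0.516 to 0.701) in Fcrls-led and 0.650 (0.587 to 0.720) in inflammatory-like cells. It was 0.962 (0.812 to 1.14) in MHC class II-like and 0.981 (0.752 to 1.28) in lipid-associated-like cells. It was also lower in interferon-like cells, at 0.611 (0.422 to 0.888), and at 0.540 (0.155 to 1.54) in resident-like cells, from 5 and 16 UMIs. In the lipid-associated-like cluster under AngII/PE both Clec4d and Clec4e were near 1.

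Clec4n differed little after carboplatin in the class, at 1.15 (1.12 to 1.18) under AngII/PE and 1.07 (1.01 to 1.14) under saline. In lipid-associated-like cells it stood at 355 CPM for carboplatin AngII/PE against 224 CPM for PBS AngII/PE, a ratio of 1.58 (1.45 to 1.73). In resident-like cells under saline it was 1.00 (0.935 to 1.07). Clec4a1, Clec4a2 and Clec4a3 had ratios of 1.08, 1.23 and 1.17 under AngII/PE and of 0.965, 1.04 and 1.05 under saline.

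Cd207 differed from the rest in being carried by few cells. Its level in the macrophage-like class was 8.59 CPM for carboplatin AngII/PE, 0.247 for PBS AngII/PE, 54.5 for carboplatin saline and 73.8 for PBS saline. The saline libraries were the upper pair, with AngII/PE 6.34-fold lower (5.68 to 7.09) after carboplatin and 298-fold lower (151 to 692) after PBS. These intervals count UMIs, and UMIs of 1 cell are not independent. Cells with 10 or more Cd207 UMIs numbered 4 of 3921 for carboplatin AngII/PE (0.102%, 0.0278 to 0.261), 0 of 2127 for PBS AngII/PE, which allows a share of up to 0.141%, 14 of 1017 for carboplatin saline (1.38%, 0.755 to 2.30) and 35 of 1949 for PBS saline (1.80%, 1.25 to 2.49). Such cells held 94.9%, 95.7% and 95% of the Cd207 UMIs in the 3 libraries that had any.

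**Figure D3:**
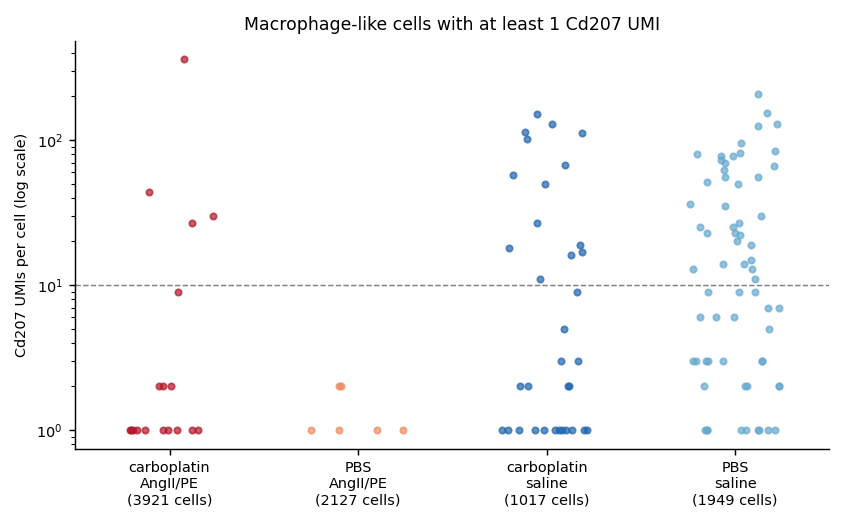
Cd207 UMIs per cell (log axis) for macrophage-like cells with at least 1 UMI, by library, with the number of macrophage-like cells under each name and a dashed line at 10 UMIs. The highest cell held 361 UMIs for carboplatin AngII/PE, 2 for PBS AngII/PE, 152 for carboplatin saline and 207 for PBS saline.

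Cells with 10 or more UMIs are called Cd207-rich here. Of those in the macrophage-like class, 2 of 4 were resident-like for carboplatin AngII/PE, 11 of 14 for carboplatin saline and 32 of 35 for PBS saline. The others were in the Fcrls-led cluster (2, 3 and 2 cells) and, for PBS saline, in the inflammatory-like cluster (1 cell). Outside the macrophage-like class, rich cells were also in unnamed cluster 7 (2 for carboplatin saline, 4 for PBS saline), in unnamed cluster 6 and the cycling-like cluster (1 each for carboplatin saline), and among B cell-like and endothelial-like cells (1 each for PBS saline). Within the resident-like cluster the rich share was 4.26% (0.520 to 14.5) of 47 cells for carboplatin AngII/PE, 1.30% (0.652 to 2.32) of 844 for carboplatin saline and 1.80% (1.23 to 2.53) of 1779 for PBS saline. For PBS AngII/PE it was 0 of 90 cells, which allows up to 3.33%, so a share such as that of PBS saline could not be told from 0 at this number of cells. The intervals of these shares overlapped. The level inside the cluster was 600.0 CPM for carboplatin AngII/PE, from 4 cells with a UMI, against 59.6 CPM for carboplatin saline. Of the 415 UMIs behind the 600.0 CPM, 361 were in 1 cell. Inside the Fcrls-led cluster Cd207 was lower under the pump, at 2.70 CPM for carboplatin AngII/PE against 208 CPM for carboplatin saline and at 0.209 CPM for PBS AngII/PE against 192 CPM for PBS saline. Cells with a UMI there were 5 of 1577 and 1 of 630 under AngII/PE (carboplatin, PBS), against 3 of 30 and 2 of 33 under saline.

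Between 10 and 19 UMIs there were 0, 0, 5 and 7 cells, and between 5 and 9 UMIs 1, 0, 2 and 9 cells, with libraries in the order used above. Median UMIs in rich and in other macrophage-like cells were 15552.5 and 16402 for carboplatin saline and 17117 and 13516.5 for PBS saline, and median doublet scores were 0.0519 and 0.0541, and 0.0454 and 0.0561. Without the top cell the log2 ratio of carboplatin to PBS under AngII/PE was 3.58, against 5.12 with it. All 4 rich cells of the carboplatin AngII/PE library were called female. Females made up 49.4% of called macrophage-like cells in that library and 29.2% for PBS AngII/PE. Cells called female among rich cells were 8 of 11 called for carboplatin saline and 14 of 26 for PBS saline. In male-called cells the log2 ratio under AngII/PE was -1.28.

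What else the Cd207-rich cells expressed was compared within the resident-like cluster, rich cells against the other cells of the same library. The rich cells are 11 and 833 others for carboplatin saline, and 32 and 1747 others for PBS saline. Genes were chosen in the PBS saline library, taking 12 genes by highest and 6 by lowest ratio among those detected in at least 50% of the cells on the higher side (ratios with 5 CPM added to each side), and then read in the carboplatin saline library, whose cells the choice did not use. All 12 higher genes were at least 2-fold higher there and all 6 lower genes at least 2-fold lower, where 306 of 8428 genes were that much higher and 825 that much lower with 5 CPM added. Both sets of cells come from the same clustering, and each library is 1 pool.

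Id3, a repressor of differentiation factors that is switched on by bone morphogenetic proteins (BMPs), stood at 965 CPM in rich and 17.4 CPM in other cells for carboplatin saline, and at 673 and 22.6 CPM for PBS saline. Its relative Id1 had ratios of 12.7 and 24.8 (carboplatin saline, PBS saline), and Smad6, a brake on BMP signals, 47.2 in each. Other genes in this group were St3gal5, a sialyltransferase that makes the ganglioside GM3 (24.4 and 44.3), Itgal, the integrin chain of LFA-1 (22.7 and 34.6), Tgm2, a crosslinking enzyme (10.8 and 27.3), Dmpk, a kinase (55.2 and 36.3), and Acp5, an acid phosphatase known from osteoclasts (8.82 and 12.7). Ccl12, a chemokine that attracts monocytes, was 4.93-fold and 5.28-fold lower in rich cells, and F13a1, a chain of coagulation factor XIII, 9.66-fold and 4.32-fold lower.

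Clec4f, a C-type lectin known from Kupffer cells of the mouse liver, was almost confined to the rich cells. It held 30 UMIs in 3 of 11 rich cells and 4 UMIs in the 833 others for carboplatin saline, and 99 UMIs in 15 of 32 rich cells and 1 UMI in the 1747 others for PBS saline. Vsig4, a complement receptor of resident macrophages, had ratios of 48.5 (37.7 to 62.2) and 12.3 (10.9 to 13.9). Its UMIs were in 4 of 11 rich cells for carboplatin saline and 15 of 32 for PBS saline. The 10 macrophage markers lay between 0.751 (Cd68, carboplatin saline) and 1.66 (Mertk, PBS saline). Among them C1qa was at 0.858 and 0.959, Adgre1 at 1.23 and 1.34 and Csf1r at 1.47 and 1.35. Of the 8 resident markers, Lyve1 (0.318 and 0.512), Folr2 (0.436 and 0.384), Cbr2 (0.171 and 0.298), Gas6 (0.337 and 0.369) and F13a1 were lower in rich cells of both libraries. Timd4 was at 6.45 and 1.04 and Cd163 at 2.80 and 0.762, so these 2 and Vsig4 did not share that direction in both. For carboplatin saline, Timd4 was in 2 and Cd163 in 3 of the 11 rich cells. Among dendritic and Langerhans cell genes, Xcr1, Ccr7 and Epcam had 0 UMIs in the rich cells of both libraries, and Flt3 had 1 and 0. Xcr1, Ccr7 and Epcam were at most 0.727 CPM in the other cells, so these zeros do not set the rich cells apart. Cadm1 was at 2.29 and 3.13 and Itgax at 8.33 and 8.94. Itgae was at 18.2 (3.26 to 68.8) and 6.07, from 3 and 2 UMIs in 1 cell each. Clec9a was at 1.40 and 3.57, from 2 and 4 UMIs. Other dendritic cell genes did not share this rise: Irf8 was at 1.11 and 0.991, Wdfy4 at 0.928 and 1.12. Naaa was at 0.463 and 0.900, Irf4 at 0.464 and 0.764 and Sirpa at 1.12 and 1.38. Zbtb46 was at 2.42 and 0.297, from 2 UMIs each. Cd209a, Kit, Dpp4 and Klrd1 had 0 UMIs in rich cells and were at most 2.62 CPM in the others. Clec4n, among the other members, was at 2.82 (2.10 to 3.72) and 1.60, and Clec4a2 at 1.47 and 1.49. Clec4a1 was lower in rich cells of both libraries, at 0.589 (0.368 to 0.894) and 0.752 (0.592 to 0.942). Clec12a was at 0.557 and 1.23 and Clec4a3 at 0.959 and 1.44. Clec4d (2.08 and 0.614) and Clec4e (2.12 and 0.367) had few UMIs in rich cells. Clec4f, Vsig4, Itgax and the markers were read from lists and not chosen by ratio.

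**Figure D4:**
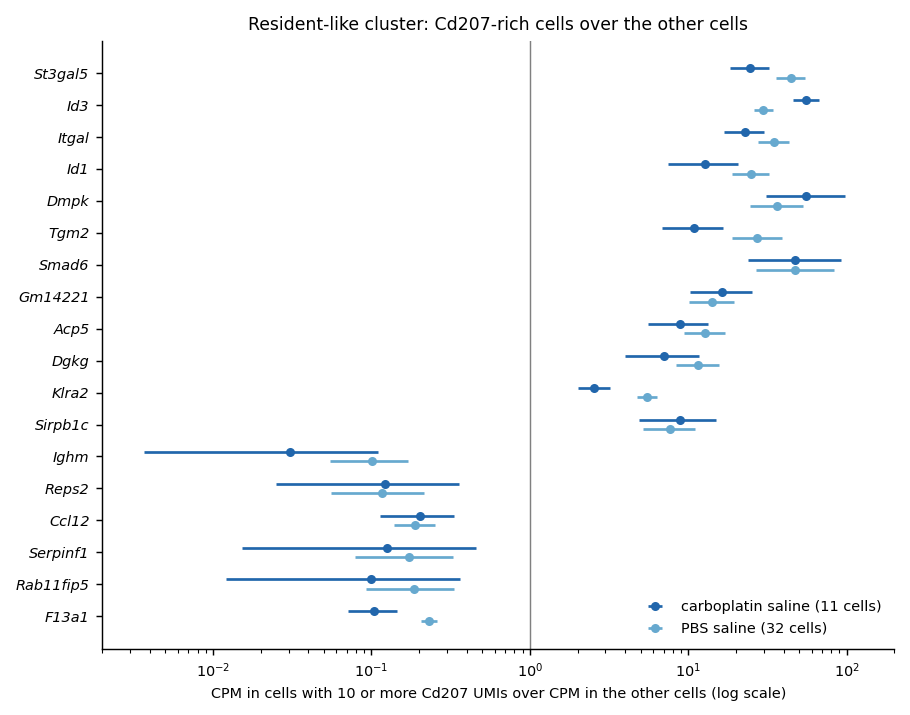
Ratio of CPM in Cd207-rich cells to the other resident-like cells (log axis) for the 18 genes chosen in the PBS saline library, with 95% intervals for counting error in both saline libraries. The 12 genes at the top lie above 2-fold and the 6 at the bottom below 1 in both libraries.

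Across cell classes the members had different places of highest level. The order uses clusters of at least 50 cells summed over libraries, and says that 2 neighbours do not differ where their ranges over libraries meet. A range covers only libraries with 20 or more cells of the cluster. That was 1 library for neutrophil-like cells (Clec4d at 1168 CPM) and 2 each for lipid-associated-like and patrolling monocyte-like cells. Clec4d was highest in neutrophil-like cells (1703 CPM, 71 cells, all of which held a UMI), then in lipid-associated-like (202 CPM) and inflammatory-like cells (101 CPM), with no meeting of ranges, and at 18.4 CPM in resident-like cells. Clec4e was highest in the same neutrophil-like cells (599.5 CPM), then in patrolling monocyte-like cells (151 CPM) and inflammatory-like cells (67.6 CPM), and stood at 5.12 CPM in resident-like cells. The sort excluded Ly6G positive cells, and 15 to 23 neutrophil-like cells were left per library.

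**Figure D5:**
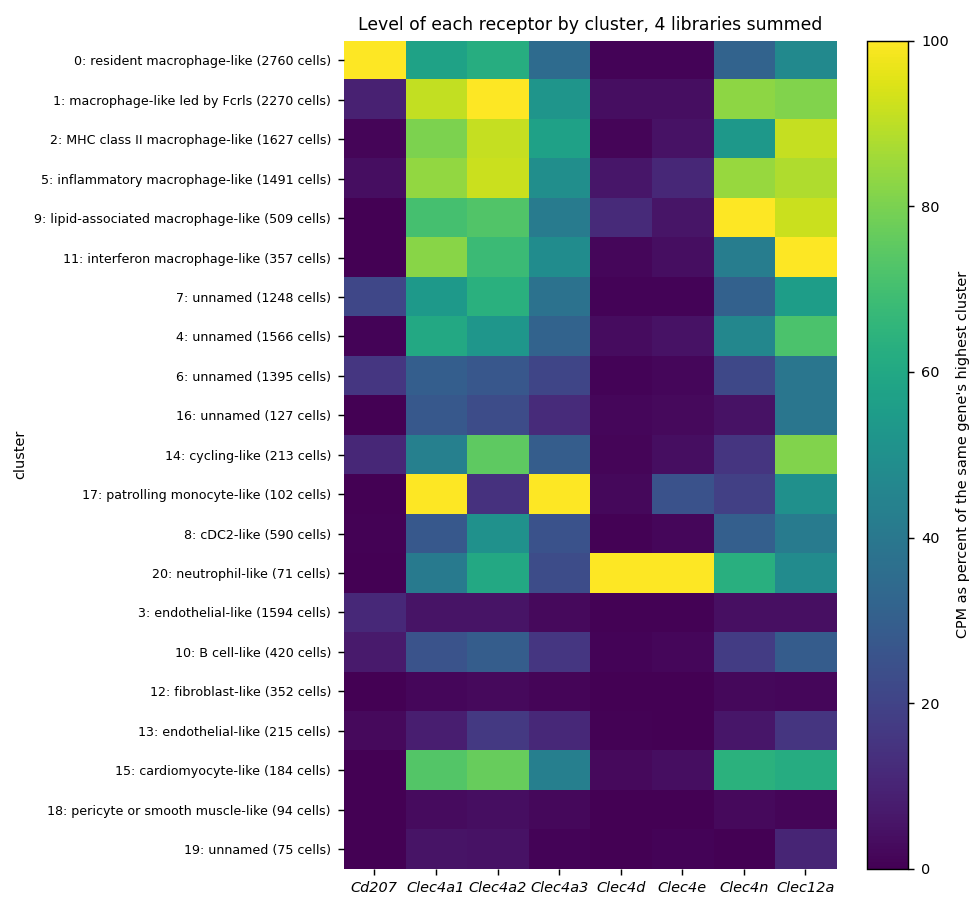
Level of each of the 8 measured receptors in clusters of at least 50 cells, 4 libraries summed, as percent of the same gene's highest cluster (colour scale). Clec4d and Clec4e peak in the neutrophil-like cluster, Clec4a3 in the patrolling monocyte-like cluster and Cd207 in the resident-like cluster, although in each saline library alone the Fcrls-led cluster was higher for Cd207.

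Patrolling monocyte-like cells, found mainly in the saline libraries (55 and 41 cells), set the Clec4a genes apart from each other. Clec4a3 was highest there at 525 CPM (469 for carboplatin saline and 624 for PBS saline), above MHC class II-like cells at 299 CPM, and the ranges did not meet. Clec4a1 was highest there too, at 326 CPM, above Fcrls-led cells at 296 CPM. Clec4a2, the inhibitory member, was highest in Fcrls-led cells at 321 CPM and was at 46.2 CPM in patrolling monocyte-like cells, with 25 UMIs for carboplatin saline and 2 for PBS saline. The 9 patrolling monocyte markers summed to 142 and 151 CPM in macrophage-like cells of the AngII/PE libraries (carboplatin, PBS) and 191 and 149 CPM in those of the saline libraries.

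Clec4n was highest in lipid-associated-like cells (300.4 CPM), followed by inflammatory-like (254) and Fcrls-led cells (249), whose ranges met, and stood at 96.0 CPM in resident-like cells. Clec12a was highest in interferon-like cells at 347 CPM, with lipid-associated-like (319), MHC class II-like (317) and inflammatory-like cells (306) next and all ranges meeting. It was at 164 CPM in resident-like cells. In the 28 cDC1-like cells, too few to enter the order, Clec12a held 6, 7, 21 and 44 UMIs by library, whereas Clec4d and Clec4e held 0, Clec4a3 1 and Clec4a2 3. Cd207 was highest in resident-like cells at 76.9 CPM, from 0 CPM for PBS AngII/PE to 600.0 CPM for carboplatin AngII/PE, a range that spans all other clusters. In the 600.0 CPM, 361 of 415 UMIs were from 1 cell. The highest place of resident-like cells holds for the libraries summed. Inside the saline libraries the few Fcrls-led cells were higher, at 208 CPM for carboplatin saline (3 of 30 cells with a UMI) and 192 CPM for PBS saline (2 of 33), against 59.6 and 75.8 CPM in resident-like cells, and the 22 inflammatory-like cells of PBS saline were at 187 CPM.

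The genes most like each member over 21 clusters were found by Pearson correlation of log2(CPM + 5) among 9678 genes, as a description, since clusters share libraries and cells. Clec12a lay closest to Ms4a6c and to Ctss, a lysosomal protease (0.983 and 0.982). Clec4a1 lay closest to Cd300c2 (0.983), Clec4a2 to the Fc receptor Fcgr3 (0.976) and Clec4a3 to Cybb, the NADPH oxidase subunit of phagocytes (0.964). Clec4n was closest to Csf2rb2, a cytokine receptor chain (0.946), with Atp6v1a and Atp6v0b, subunits of the proton pump that acidifies lysosomes, next (0.944 and 0.938). Clec4d had a subunit of that pump first, Atp6v0d1 (0.906), and Clec4e the lactate transporter Slc16a3 (0.916). Among members, Clec4a1 and Clec4a3 (0.967) were the closest pair, Clec4d and Clec4e were at 0.870, and Cd207 was between -0.274 and 0.218 with all others.

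The rest of the pathway was read from 3 lists, as sums over the macrophage-like class only. None of these genes was compared inside clusters, so their values also compare different mixtures. Of 15 C-type lectin signalling genes, all measured, 1 was at least 1.5-fold higher under AngII/PE in each arm, and 0 passed 1.5-fold in either direction after carboplatin under either pump. That gene was Fcer1g, the adaptor of Clec4d, Clec4e and Clec4n. It stood at 2814 CPM for carboplatin AngII/PE, 2518 for PBS AngII/PE, 1759 for carboplatin saline and 1678 for PBS saline, with AngII/PE ratios of 1.60 (1.58 to 1.62) after carboplatin and 1.50 (1.48 to 1.52) after PBS. Vav1, an exchange factor downstream of Syk, was at 1.38 after carboplatin and 1.30 after PBS, its relative Vav3 at 0.764 after PBS and Malt1 at 0.717 after carboplatin. The list's median log2 ratio was 0.10 after carboplatin and 0.18 after PBS.

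Of 29 other C-type lectin receptors, 11 were measured at 10 CPM or more, of which 3 were higher and 4 lower by 1.5-fold under AngII/PE after carboplatin and 3 and 5 after PBS. Mgl2, a galactose-type lectin, stood at 72.4 and 79.9 CPM under AngII/PE (carboplatin, PBS) against 640.3 and 632 CPM under saline. Its relative Clec10a was at 18.2 and 20.8 CPM against 58.4 and 87.9 CPM. Cd69, an activation marker, was higher under AngII/PE, at 43.8 and 35.9 CPM against 20.2 and 9.40 CPM. Colec12, a scavenger receptor, was at 10.5 CPM for carboplatin AngII/PE and 22.3 for PBS AngII/PE, and at 25.7 CPM for carboplatin saline and 232 for PBS saline, 9.0-fold lower (8.17 to 9.94) after carboplatin under saline. The carboplatin comparisons had 0 higher and 1 lower under AngII/PE, and 2 and 2 under saline. Mgl2, Clec10a and Colec12 thus went the way of Cd207 under the pump in the class. Colec12 is among the leading genes of the resident-like cluster, and the part of the cluster mixture in these values was not tested.

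Of 14 genes known as outputs of Syk and Card9, 8 were measured. Under AngII/PE 0 were higher and 2 lower by 1.5-fold after carboplatin, and 1 and 2 after PBS. Il1b, the inflammatory cytokine, stood at 201 and 247 CPM under AngII/PE (carboplatin, PBS) against 373 and 385 CPM under saline, and Egr2, a transcription factor, at 18.1 and 22.6 CPM against 37.7 and 35.4 CPM. Ptgs2, the prostaglandin synthase COX-2, had a ratio of 1.55 (1.35 to 1.78) under AngII/PE after PBS. After carboplatin under AngII/PE 0 were higher and 1 lower, Ptgs2 at 0.607 (0.541 to 0.682), and under saline 0 passed in either direction. The list's median log2 ratio under AngII/PE was -0.20 after carboplatin and -0.17 after PBS, where the members' medians were above 0.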

How the data were processed

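The authors deposited 4 libraries as raw UMI counts by gene and barcode, not normalised. The file headers give Cell Ranger 7.1.0, and the labels' protocols give version 3, mm10 and the 3.1 release of the 3' kit. Seurat is given as 3.2.3 in the labels' protocols and as 4 in the submitters' processing notes. The sources used here do not say if intronic reads were counted.

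Limits on mitochondrial share, UMIs and genes per cell, as stated by the submitters, left 17312 of 27968 barcodes (their own numbers are 17438 of 38066, a gap that was not resolved). Scrublet (scanpy 1.11.5) found too few doublets to be relied on, and none were removed. All libraries were clustered together without integration (sctransform 0.4.2, Seurat 5.3.0, R 4.3.3), and clusters were named from marker lists. Clusters with macrophage markers stayed unnamed where cells were shallow or genes of another class led. Those naming limits were chosen after seeing the data, so classes are rebuilt and not the authors'.

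UMIs were summed per library and class and divided by the total to give CPM. Each ratio has an exact conditional binomial 95% interval, and each share of cells an exact one by Clopper-Pearson. Where no count was seen, 3 counts served as the floor. Without replicates, no test was run. Members were counted past a fold of 1.5. The ratio and its interval were tested on simulated data. Genes named from a list come from the 4 with the greatest absolute log2 ratio in a comparison. Sex-linked genes called cells female or male for the within-sex values. The members and lists were chosen with earlier results of these data known.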

Additional observations from a re-analysis of the deposited data

Results flagged for a closer look

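The carboplatin over PBS ratio of Cd207 in macrophage-like cells was 34.7 under AngII/PE and 0.739 under saline, so the 2 pumps gave opposite directions. The AngII/PE value rests on 4 Cd207-rich cells against none. The class ratio of Clec4e was 0.698 under AngII/PE and 1.24 under saline, also opposite. Inside the resident-like cluster under saline Clec4e was not higher after carboplatin, at 4.66 against 4.93 CPM. The MHC class II-like and inflammatory-like clusters were lower after carboplatin there, and the Fcrls-led and lipid-associated-like clusters were higher, from few cells. With 1 library per group the difference between the pumps was not tested for either gene.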

How the results depend on the processing

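Of 412 log2 ratios of single members under other settings, 295 moved by less than their counting interval, 113 moved further and 4 changed direction; 30 moved by over 1.5 times, and 4 Cd207 ratios had no value because a library held 0 UMIs. Those that changed direction were Clec4d under saline in female-called cells (log2 ratio of carboplatin to PBS 0.14), Cd207 under AngII/PE in male-called cells (-1.28), and, in the resident-like cluster alone, a setting added after seeing the data, Clec12a for AngII/PE over saline after PBS (-0.23) and Cd207 after carboplatin (3.33). For carboplatin against PBS under saline, members at least 1.5-fold higher numbered 0, but 1 with clustering without the members, 2 at clustering resolution 1.2, 1 in female-called cells, 1 in male-called cells, 1 with TMM scaling and 1 as a mean of cells. Members lower numbered 1, but 2 without the members, with log-normalised clustering, with unnamed clusters included and in male-called cells, and 0 in female-called cells. Under AngII/PE, members higher after carboplatin numbered 1, but 0 in male-called cells and in cells thinned to 2000 UMIs; members lower numbered 0, but 1 at resolution 1.2, in male-called cells and in thinned cells, and 2 in the resident-like cluster alone. For AngII/PE over saline, members lower numbered 1 in both arms, but 0 after PBS in thinned cells and in the resident-like cluster alone and 0 after carboplatin in that cluster; members higher after carboplatin numbered 7, but 4 in male-called cells and in that cluster. The cause was not tested, beyond the 0 UMIs that leave Cd207 without a value. For the Cd207 log2 ratio of 3.33, 1 cell held 361 of the 415 UMIs in the AngII/PE library. No paired analysis was possible because each group is 1 library. Counts under about 10 UMIs in a library, as for Cd207 with PBS and AngII/PE, limit what can be told from 0.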

Other observations

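A cardiomyocyte-like cluster of 184 cells, shallow at 31.5% of its libraries' median UMIs, held the receptors near macrophage levels: Clec4a1 at 239 CPM, Clec4a2 at 246, Clec4a3 at 226, Clec12a at 215 and Clec4n at 192, with all 10 macrophage markers present. In B cell-like cells Clec4n stood at 78.6 CPM for carboplatin AngII/PE and 130.1 for PBS AngII/PE, against 38.7 CPM for carboplatin saline and 9.75 for PBS saline, the same order by pump as in macrophage-like cells, and all 10 macrophage markers were present in the main cluster of this class. A single endothelial-like cell of the PBS saline library held 133 Cd207 UMIs and was the one Cd207-rich cell among the 598 of that class.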
